A study of Mus musculus with 12 samples.

Results

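The mRNAs of 10 genes that store, release, pump or buffer calcium in muscle fibres were followed in the tibialis anterior of wild-type and dystrophic mice. The genes were found by symbol in a table of 24421 genes: Sln, Pln, Atp2a1, Atp2a2, Casq1, Casq2, Ryr1, Ryr3, Pvalb and Jph1, and all 10 passed the filter on low counts. The 12 mice were males aged 4 months: 6 of the C57Bl/6 strain (WT) and 6 of the strain labelled mdx/mTR. In mdx, a mutation of Dmd removes most dystrophin, a protein that anchors the fibre membrane. The mTR part of the name stands for the telomerase RNA gene, Terc, and the labels say nothing on the generation or on alleles shared with the WT mice. RNA came from the muscle as a whole, and each library is taken here as 1 mouse, which the labels do not state outright. In such RNA, fewer cells of a type and less RNA per cell cannot be told apart.

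A muscle fibre contracts when calcium leaves the sarcoplasmic reticulum through the release channel RYR1 and relaxes when SERCA pumps carry it back. SERCA1, from Atp2a1, is the pump of fast fibres, and SERCA2, from Atp2a2, is that of slow fibres, heart and most other cells. Sarcolipin and phospholamban are short membrane peptides that bind these pumps and reduce calcium uptake, and sarcolipin also lets the pump spend ATP without moving calcium. Calsequestrins hold calcium inside the reticulum, parvalbumin binds it in the cytosol of fast fibres, and junctophilins tie the reticulum to the surface membrane at the triad.

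The coding sequences of 3 of the short peptides that act on SERCA are shown because they make plain how short the gene product with the largest change is. Sarcolipin is read from 31 codons at chr9:53853473-53853568, phospholamban from 52 codons at chr10:53343864-53344022 and myoregulin (Mrln, a related peptide of fast muscle) from 46 codons at chr10:70219496-70219636. All lie on the plus strand of GRCm38 in GENCODE M21 transcripts, each within 1 exon, and capitals mark the start and stop codons.
Sln: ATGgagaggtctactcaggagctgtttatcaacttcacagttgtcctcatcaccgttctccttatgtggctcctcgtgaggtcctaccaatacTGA
Pln: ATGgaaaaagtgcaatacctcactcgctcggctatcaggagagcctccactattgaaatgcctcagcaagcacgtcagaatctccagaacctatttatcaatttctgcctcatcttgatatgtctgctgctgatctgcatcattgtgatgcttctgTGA
Mrln: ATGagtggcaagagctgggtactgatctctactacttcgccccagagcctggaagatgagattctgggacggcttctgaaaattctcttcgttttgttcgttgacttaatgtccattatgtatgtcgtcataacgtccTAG

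Libraries held 35136327 to 60330410 counts. Levels are given as CPM, read counts corrected for depth with TMM scaling, which also corrects for differences in library composition, and a count of 3 corresponds to 0.0460 to 0.0837 CPM. Dmd had 228 to 244 CPM in WT mice and 35.2 to 56.4 CPM in mdx/mTR, so every library matched its label (log2 fold change -2.34, SE 0.09, adjusted p 8.3e-10 by edgeR). Terc had 2 counts in WT and 0 in mdx/mTR and was too low to test, so the mTR part of the label could not be checked here. The defining genes of skeletal fibres were abundant in every library, with Myh4 at 35257 CPM or more, while 4 of 5 heart genes (Nppa, Myl7, Tnni3 and Nppb) were below 1 CPM in all 12. The other one, Myh6, was at 4.38 to 5.86 CPM in WT and lower in mdx/mTR, at 1.25 to 2.77 CPM (log2 fold change -1.42).

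The comparison asked how the mRNAs of this calcium cycle differ between the strains. Of the 10 genes, 5 had an adjusted p below 0.05 in edgeR, against 48.3% of the 13937 genes tested. Sln, Atp2a2 and Casq1 were higher in mdx/mTR (3 genes, where 25% of all tested genes were higher), and Ryr1 and Jph1 were lower (2 genes, where 23.4% were lower). In these same 5 genes the groups did not overlap, which was so for 25.2% of all tested genes. The share called is therefore near that of the whole table, and the interest lies in which genes moved and how far. The median log2 fold change was 0.16 over the 10 genes and 0.014 over all tested genes.

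**Figure D1:**
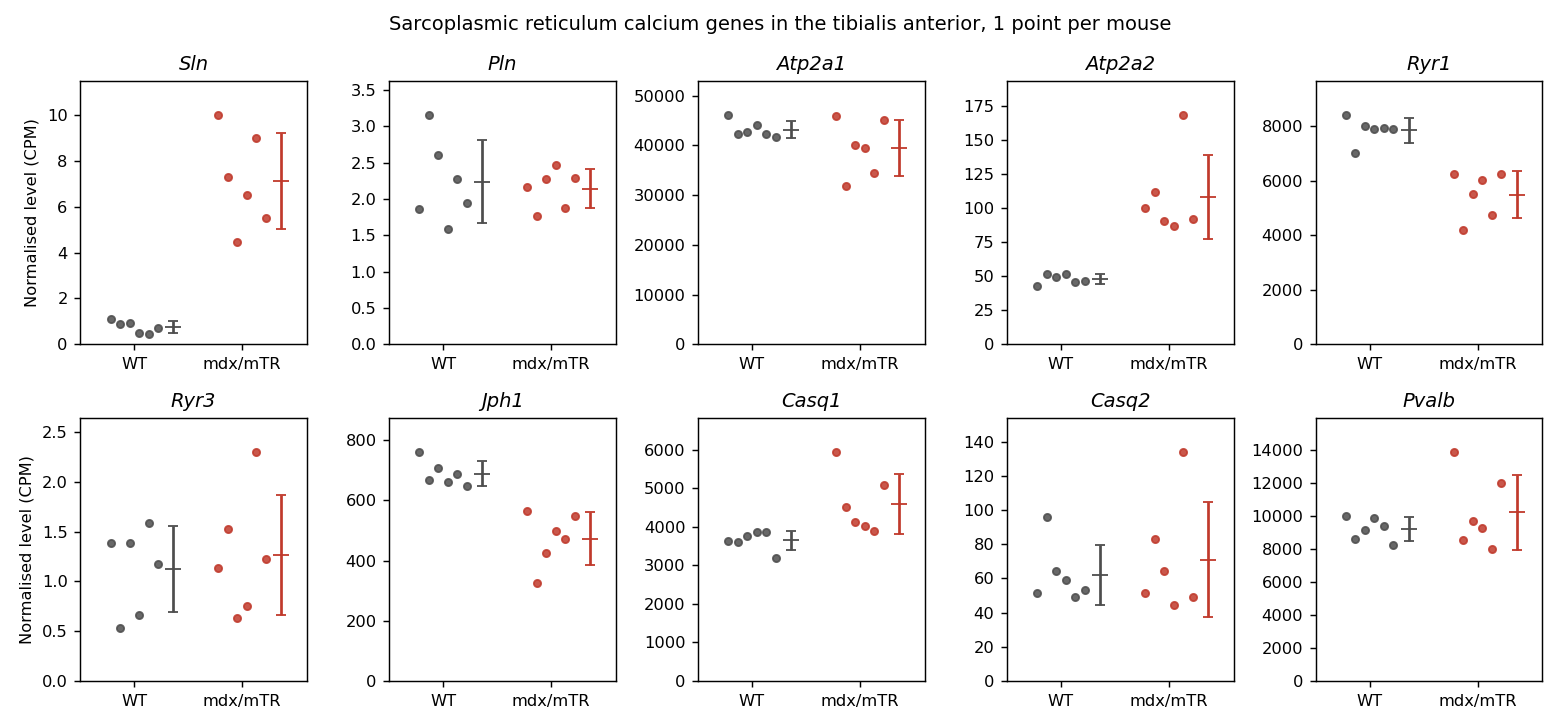
Normalised level (CPM, linear axes from 0) of each gene, with 1 point per mouse and, beside the points, the mean and SD of 6 mice. Sln and Atp2a2 stand apart upwards in mdx/mTR, Ryr1 and Jph1 stand apart downwards, the groups of Casq1 lie just clear of each other, and those of the other 5 genes overlap.

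Sln, which encodes sarcolipin (chr9:53850164-53854560), had the largest change. The 6 WT libraries held 0.444, 0.802 and 1.08 CPM at the lowest, median and highest. The 6 mdx/mTR libraries held 4.46, 6.91 and 10 CPM. Every mdx/mTR mouse lay above every WT mouse, and the lowest mdx/mTR value was 4.11 times the highest WT value. The means were 0.754 ± 0.256 and 7.13 ± 2.09 CPM (SD, n = 6 each), a 9.45-fold difference (log2 fold change 3.24, SE 0.25, adjusted p 5.9e-07 by edgeR). These levels rest on 17 to 39 reads per WT library and 163 to 574 per mdx/mTR library, so sarcolipin mRNA was scarce in both strains. In the authors' deposited table, Sln has a log2 fold change of 2.93.

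Pln, which encodes phospholamban (chr10:53337667-53345987), did not pass the test. WT libraries held 1.59, 2.11 and 3.15 CPM at the lowest, median and highest, and mdx/mTR libraries 1.77, 2.22 and 2.47 CPM. The mdx/mTR mice all fell inside the WT range. The log2 fold change was -0.07 ± 0.16 (SE, edgeR adjusted p 0.756), and its sign turned with library totals alone (0.08), with scaling to myofibre genes (0.09) and without WT replicate 2 (0.05). Exons of other genes on the opposite strand cover part of Pln (Cep85l covers 5.11% and Gm47644 covers 59.6% of its exon length). Gm47644 has no row in the count table, so no level can be given for it. Cep85l was at 37.2 ± 10.5 CPM in WT mice and 55.4 ± 21.0 CPM in mdx/mTR, and the sources used here do not state whether counting used strand, so the low Pln level is uncertain.

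Among the pump mRNAs, the minor form rose and the major form did not pass the test. Atp2a2, which encodes SERCA2 (chr5:122453513-122502225), held 43.1, 48.0 and 51.9 CPM in WT at the lowest, median and highest. In mdx/mTR it held 86.9, 95.8 and 168 CPM, with no overlap between groups. The means were 48.0 ± 3.58 and 108 ± 30.7 CPM, a 2.25-fold difference (log2 fold change 1.17, SE 0.14, adjusted p 2.2e-05 by edgeR). The highest value belonged to mdx/mTR replicate 5, and without that mouse the log2 fold change was 1.0.

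Atp2a1, which encodes SERCA1 (chr7:126445858-126463108), was the most abundant of the 10 genes. WT libraries held 41599, 42551 and 46051 CPM at the lowest, median and highest, and mdx/mTR libraries 31878, 39732 and 45885 CPM. Of the mdx/mTR mice, 4 lay below the lowest WT mouse and 2 lay within the WT range. The log2 fold change was -0.13 ± 0.11 (SE, edgeR adjusted p 0.34), and it was 0.02 both with library totals alone and with scaling to the summed counts of 20 myofibre genes. Spread between mice was wider in mdx/mTR, with a coefficient of variation of 14.1% against 3.76% in WT. Exons of Rabep2 on the opposite strand cover 21.9% of the exon length of Atp2a1. Rabep2 was at 3.61 ± 0.177 CPM in WT mice and 4.91 ± 0.692 CPM in mdx/mTR.

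Atp2a2 is also expressed outside fast fibres, so markers of other cells and fibre states were measured beside it. Over all tested genes, 25% were higher and 23.4% lower. The list of immature fibre genes had 7 of 7 higher, with summed levels of 205 to 481 CPM in WT mice and 424 to 1396 CPM in mdx/mTR. Macrophage markers had 7 of 7 higher (79.0 to 132 against 231 to 614 CPM) and fibroblast markers 5 of 5 higher (841 to 1559 against 2160 to 4359 CPM). Smooth muscle markers had 1 of 5 higher and 2 lower, with sums of 178 to 257 CPM in WT mice and 192 to 232 CPM in mdx/mTR. Endothelial markers had 3 of 5 lower and none higher (434 to 574 against 342 to 444 CPM), and Schwann cell markers had 4 of 4 lower (48.7 to 61.4 against 25.4 to 38.7 CPM). Slow fibre genes had 4 of 8 higher and 2 lower. By log2 fold change, Tnni1 (4.01), Myh7 (2.02), Tnnc1 (1.78) and Tnnt1 (1.59) were higher, and Myl3 (-1.85) and Myh7b (-1.04) were lower. Their sums, 1046 to 1643 against 1045 to 2272 CPM, were mostly Actn2 (954 to 1450 against 969 to 2161 CPM, not called). The sums therefore do not show how the other slow fibre genes moved. No gene of these lists was at 0 in every library, and their part in the Atp2a2 and Sln results was not tested.

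Sln was highest in mdx/mTR replicate 1 (10 CPM). Of the listed genes of immature fibres, only the cardiac actin gene Actc1 was also highest there (1041 CPM). The same mouse had the lowest values of its group for the embryonic myosin gene Myh3 (20.1 CPM), Tmem8c (4.72 CPM), Chrng (2.16 CPM) and Ncam1 (17.7 CPM). These genes, Myh8 and Myog were all highest in mdx/mTR replicate 5. Replicate 5 had the highest Myh3 (215 CPM) and the next highest Sln (8.99 CPM). Replicate 3 had the lowest Sln (4.46 CPM) but more Myh3 (41.5 CPM) than replicate 6 (39.2 CPM, with Sln at 5.52 CPM). Sln and Myh3 thus did not share 1 order over the mdx/mTR mice. Atp2a2 and Myh3 were both highest in mdx/mTR replicate 5 (168 and 215 CPM). The slow myosin gene Myh7 had a mean of 3.54 ± 0.616 CPM in WT mice and 14.2 ± 11.5 CPM in mdx/mTR mice (log2 fold change 2.02, SE 0.50, adjusted p 0.00445 by edgeR). Its highest values were in mdx/mTR replicates 1 and 2 (29.9 and 26.7 CPM), and limma-voom did not call it.

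The mRNAs of the release channel RYR1 and of junctophilin 1 both fell. Ryr1 (chr7:29003344-29125179) held 7009, 7918 and 8403 CPM in WT at the lowest, median and highest, and 4180, 5762 and 6268 CPM in mdx/mTR. All 6 mdx/mTR mice lay below all 6 WT mice. The mdx/mTR mean of 5493 ± 858 CPM was 69.9% of the WT mean of 7862 ± 458 CPM (log2 fold change -0.52, SE 0.10, adjusted p 0.00109 by edgeR).

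Jph1, which encodes junctophilin 1 (chr1:16964560-17097889), held 648, 678 and 761 CPM in WT mice and 326, 485 and 566 CPM in mdx/mTR at the lowest, median and highest. Again no mdx/mTR mouse reached the WT range. The mdx/mTR mean of 473 ± 88.6 CPM was 68.6% of the WT mean of 689 ± 41.4 CPM (log2 fold change -0.54, SE 0.11, adjusted p 0.00121 by edgeR). Scaled to the 20 myofibre genes, the falls were smaller, -0.36 for Ryr1 and -0.38 for Jph1, and both still passed the test. Jph2, the other junctophilin gene measured, did not pass, at 1214 ± 56.9 CPM in WT mice and 1181 ± 182 CPM in mdx/mTR mice (log2 fold change -0.04, SE 0.09, adjusted p 0.738 by edgeR).

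Ryr3 (chr2:112631355-113217096), a release channel isoform of developing muscle, did not pass. It held 0.530, 1.28 and 1.59 CPM in WT mice and 0.629, 1.18 and 2.30 CPM in mdx/mTR at the lowest, median and highest. The groups overlapped, and only mdx/mTR replicate 5 lay above the WT range. The log2 fold change was 0.18 ± 0.33 (SE, edgeR adjusted p 0.682) and -0.07 without that mouse. It rested on 19 to 108 reads per library, and the coefficient of variation between mice was 38.3% in WT and 47.9% in mdx/mTR. Exons of Aven on the opposite strand cover 4.83% of the exon length of Ryr3, and Aven was at 12.3 ± 2.32 CPM in WT mice and 12.4 ± 1.96 CPM in mdx/mTR.

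The mRNA of the calcium store protein of fast fibres rose slightly. Casq1, which encodes calsequestrin 1 (chr1:172209894-172219868), held 3200.5, 3698 and 3865 CPM in WT at the lowest, median and highest, and 3879, 4313 and 5938 CPM in mdx/mTR. The groups were separated by the small gap between 3865 and 3879 CPM. The means of 3656 ± 247 and 4591 ± 791 CPM differed 1.26-fold (log2 fold change 0.33, SE 0.10, adjusted p 0.0181 by edgeR). Casq2 (chr3:102086415-102146514), the calsequestrin of slow fibres and heart, held 48.9, 56.1 and 96.0 CPM in WT mice and 44.3, 57.8 and 134 CPM in mdx/mTR. Its groups overlapped (log2 fold change 0.19, SE 0.25, adjusted p 0.557 by edgeR), and the value was -0.09 without mdx/mTR replicate 5.

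Pvalb, which encodes parvalbumin (chr15:78191114-78206400), held 8222, 9261 and 9980 CPM in WT mice and 7976, 9478 and 13863 CPM in mdx/mTR at the lowest, median and highest. Of the mdx/mTR mice, 2 lay above the WT range, 1 lay below it and 3 lay within it. The log2 fold change was 0.15 ± 0.13 (SE, edgeR adjusted p 0.352). It was 0.04 without mdx/mTR replicate 1 (adjusted p 0.762). The scaling decided this call: when only library totals were used, it was 0.30 (adjusted p 0.0209), and scaled to the myofibre genes it was also 0.30 (adjusted p 0.00833).

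**Figure D2:**
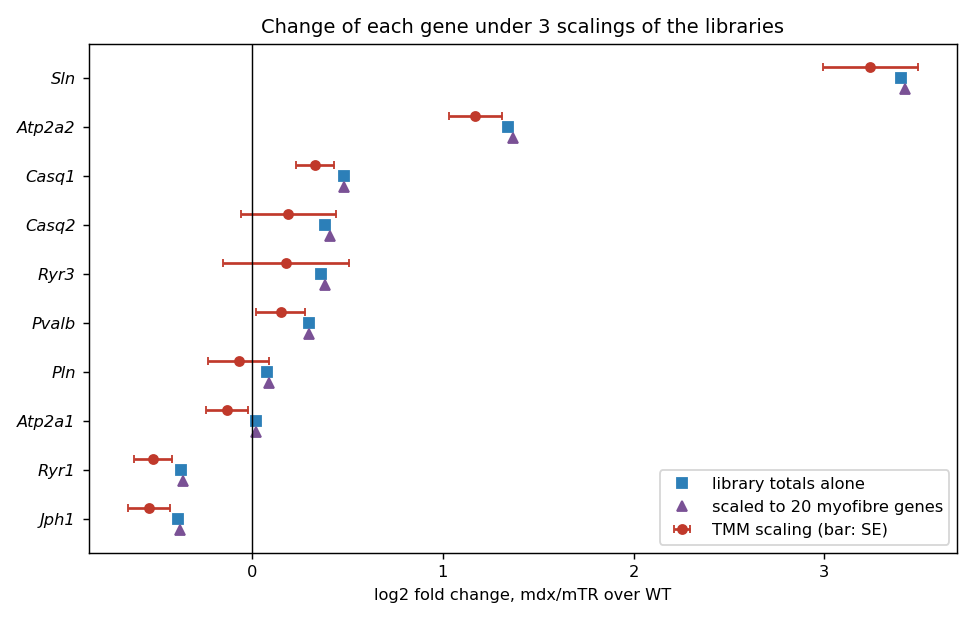
Change of each gene (log2 of mdx/mTR over WT) under TMM scaling (circles, with SE), library totals alone (squares) and scaling to 20 myofibre genes (triangles). Both other scalings move every gene to the right, Sln, Atp2a2, Casq1, Ryr1 and Jph1 keep their direction, and Pln and Atp2a1 change sign close to 0.

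Scaling bears on small changes here. The summed fast fibre genes ran from 124325 to 146123 CPM in WT and from 89754 to 124193 CPM in mdx/mTR. Myh4 made up the largest part of each sum, at a mean of 66076 CPM for WT and 43138 CPM for mdx/mTR. It was lower in mdx/mTR by edgeR (-0.62 on the log2 scale, adjusted p 0.00267), and still so under myofibre scaling (-0.46). The list was mixed: of 9 genes, 4 were lower, Mylpf was higher (0.42), and Myh1, Tnni2, Tnnt3 and Actn3 were not called. Relative to TMM scaling, the log2 fold change of the median gene was 0.156 higher with library totals alone and 0.165 higher with myofibre scaling. Under myofibre scaling, Casq1 (0.48) and Pvalb (0.30) were higher than the reference genes, Ryr1 and Jph1 were lower, and Atp2a1 differed from them by 0.02 (edgeR adjusted p 0.768).

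Shares within pairs of genes do not depend on how libraries are scaled to each other. Each was tested by exact permutation of the mice (two-sided), with adjustment over the 5 pairs, in which 0.00216 is the smallest p this design allows. Atp2a2 made up 0.111% ± 0.0101 of the Atp2a1 and Atp2a2 counts in WT mice and 0.283% ± 0.112 of them in mdx/mTR (n = 6 each, with SD; exact p 0.00216, adjusted p 0.00361). The ranges, 0.0935% to 0.122% and 0.202% to 0.485%, did not overlap. SERCA2 mRNA thus stayed a small part of pump mRNA in both strains.

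Sln made up 0.00174% ± 0.000563 of the Sln and Atp2a1 counts in WT and 0.0184% ± 0.00607 in mdx/mTR, a 10.6-fold difference (n = 6 each; exact p 0.00216, adjusted p 0.00361). Pln made up 4.44% ± 0.939 of the Pln and Atp2a2 counts in WT and 2.07% ± 0.627 in mdx/mTR (n = 6 each; exact p 0.00216, adjusted p 0.00361). The highest mdx/mTR share of Pln, 2.77%, lay below the lowest WT share, 2.99%. The fall of this share stands beside a rise of Atp2a2 and a Pln level with no called change. Relative to Atp2a1, then, Sln was higher in mdx/mTR, and relative to Atp2a2, Pln was lower.

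The isoform balance of the store and of the channel did not pass. Casq2 made up 1.68% ± 0.473 of calsequestrin counts in WT and 1.6% ± 0.926 in mdx/mTR (n = 6 each; exact p 0.857, adjusted p 0.857). Ryr3 made up 0.0141% ± 0.00506 of the Ryr1 and Ryr3 counts in WT and 0.0245% ± 0.0148 in mdx/mTR (n = 6 each; exact p 0.156, adjusted p 0.195). In mdx/mTR replicate 5 the shares of Atp2a2 (0.485%), Casq2 (3.34%), Ryr3 (0.0483%) and Sln (0.0260%) were the highest of the 12 mice, and that of Pln (1.10%) was the lowest.

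**Figure D3:**
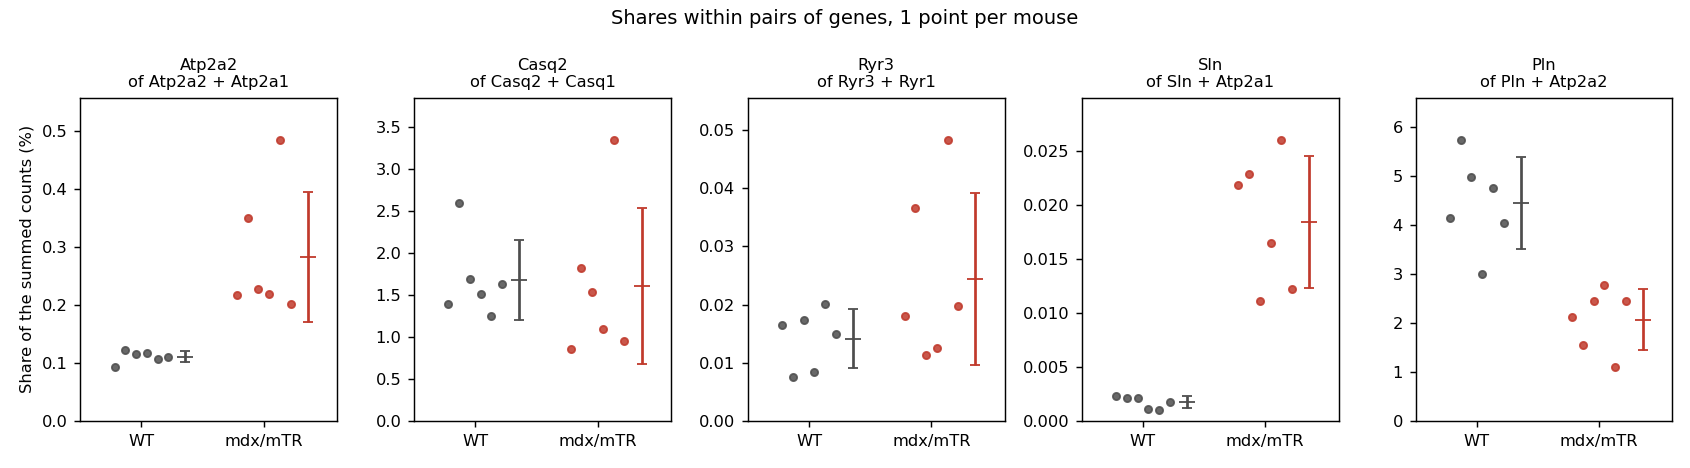
Share of the first gene in the summed counts of each pair (percent, linear axes from 0), with 1 point per mouse and the mean and SD of 6 mice. The groups do not overlap for the shares of Atp2a2, Sln and Pln, and they overlap for those of Casq2 and Ryr3.

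Per kilobase of the longest coding transcript, the genes spanned several orders of size. In WT the order was Atp2a1 (12425 ± 468 CPM per kilobase), Pvalb (9415 ± 720), Casq1 (1979 ± 134), Ryr1 (514 ± 30.0), Jph1 (143 ± 8.60), Casq2 (25.5 ± 7.20), Atp2a2 (8.46 ± 0.632), Pln (0.959 ± 0.244), Sln (0.572 ± 0.194) and Ryr3 (0.0729 ± 0.0280), as mean ± SD of 6 mice. Among neighbours in that order, only Pln and Sln had overlapping ranges in WT.

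In mdx/mTR, Sln (5.41 ± 1.59 CPM per kilobase) moved above Pln (0.917 ± 0.115), and their ranges, 3.38 to 7.59 and 0.756 to 1.06, were apart. The other ranks were as in WT. The ranges of Atp2a1 (9168 to 13197 CPM per kilobase) and Pvalb (8163 to 14190) overlapped in mdx/mTR, as did those of Casq2 (18.2 to 55.0) and Atp2a2 (15.3 to 29.7). The Sln range thus overlapped that of Pln in WT and lay above it in mdx/mTR, with the Pln level uncertain as said above. In mdx/mTR the Sln range also lay below that of Atp2a2.

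The mdx/mTR mice differed among themselves in a shared way. Replicate 2 had the lowest Atp2a1 (31878 CPM), Ryr1 (4180 CPM) and Jph1 (326 CPM) of the group. Replicate 5 had the next lowest Atp2a1 (34549 CPM) and Ryr1 (4757 CPM), with the highest Atp2a2, Casq2 and Ryr3. Replicate 1 had the highest Atp2a1, Casq1 (5938 CPM), Ryr1, Pvalb (13863 CPM), Jph1 and Sln. Replicate 6 was close to replicate 1 for Atp2a1 (45160 against 45885 CPM) and Ryr1 (6232 against 6268 CPM). For Sln the next highest mouse was instead replicate 5 (8.99 CPM). Atp2a1, Casq1, Ryr1, Pvalb, Jph1 and Sln were thus highest in the same mouse, and Atp2a2, Casq2 and Ryr3 were highest in a different one.

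Likeness to other genes was measured on deviations from the group means of log2(CPM + 0.5) over the 12 mice. It serves only as a description, because the libraries differed in depth and in the levels of fibre genes, and many genes were ranked. For Atp2a1, among 9508 genes with a mean of at least 5 CPM, the closest were Cacna1s, Ghr and Zcrb1 (Pearson r 0.98, 0.98 and 0.97; Spearman rho 0.99, 0.97 and 0.88). For Sln, with 9509 genes ranked, they were Snapc3, C330007P06Rik and Tsc22d4 (Pearson r 0.90, 0.88 and 0.85; Spearman rho 0.88, 0.88 and 0.80). Cacna1s, the voltage sensor that opens RYR1, was at 1780 ± 99.5 CPM in WT mice and 1451 ± 220 CPM in mdx/mTR mice (log2 fold change -0.29, SE 0.09, adjusted p 0.0174 by edgeR). Its fall did not pass with library totals alone or with myofibre scaling.

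Other genes of the calcium cycle, from 6 lists by role, were mostly lower where they passed. Of 56 listed genes, 49 were tested, and 6 were higher and 17 lower in edgeR, together 46.9% against 48.3% of all tested genes. By list, the share called ran from 38.5% (13 genes) to 75% (4 genes). Over the 49 tested genes, the median log2 fold change was -0.07. The balance turned with the scaling: 16 were higher and 11 lower with library totals alone, and 16 higher and 9 lower with myofibre scaling, with a median of 0.09 under both.

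Among further pumps and peptides, 2 of 3 tested genes were lower. Mrln, the myoregulin gene shown above, went from 31.9 ± 6.38 to 22.6 ± 5.46 CPM (log2 fold change -0.50, SE 0.16, adjusted p 0.0178 by edgeR). Atp2a3, the SERCA3 pump, went from 17.2 ± 2.04 to 14.0 ± 1.26 CPM (log2 fold change -0.30, SE 0.08, adjusted p 0.00888 by edgeR), a call lost with library totals alone (-0.14) and with myofibre scaling (-0.13). The third tested gene, 1810037I17Rik, listed as the peptide gene Arln, did not pass (-0.07, adjusted p 0.454 by edgeR), and Smim6 was too low to test. Of the 4 SERCA peptide genes tested, then, Sln was higher, Mrln lower, and Pln and 1810037I17Rik not called.

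Of 18 tested genes of release and the triad, 2 were higher and 6 lower. Speg, a kinase of the triad region, fell from 740 ± 27.6 to 533 ± 48.7 CPM (log2 fold change -0.47, SE 0.06, adjusted p 5.3e-05 by edgeR), without overlap. Itpr1, an IP3 receptor that also releases calcium, fell from 47.0 ± 3.88 to 34.9 ± 3.61 CPM (log2 fold change -0.43, SE 0.07, adjusted p 3.8e-04 by edgeR). Sepn1, the table's symbol for selenoprotein N of the reticulum membrane, rose from 9.46 ± 1.44 to 13.3 ± 3.25 CPM (log2 fold change 0.49, SE 0.15, adjusted p 0.0132 by edgeR). With library totals alone or myofibre scaling, 7 genes of this list were higher and 3 lower.

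Of 5 genes of luminal proteins, 1 was higher and 1 lower, against 3 higher and 1 lower with library totals alone or myofibre scaling. Srl, which encodes sarcalumenin, a calcium-binding protein of the reticulum, fell from 2917 ± 170 to 2343 ± 224 CPM (log2 fold change -0.32, SE 0.07, adjusted p 0.00317 by edgeR). Under both of these scalings Srl still passed, with a log2 fold change of -0.16. Sdf4 had a log2 fold change of 0.13 ± 0.05 (edgeR adjusted p 0.0401), a call that was lost under 13 of 22 alternatives. Casq1 and Srl, both abundant mRNAs of store proteins, thus moved in opposite directions.

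Of 4 tested genes of cytosolic buffers and sensors, 1 was higher and 2 lower. S100a1, a calcium sensor that binds RYR1 and SERCA, rose from 67.5 ± 4.97 to 85.8 ± 12 CPM (log2 fold change 0.35, SE 0.09, adjusted p 0.00432 by edgeR). Calm3 fell from 354 ± 39.5 to 279 ± 38.4 CPM (log2 fold change -0.35, SE 0.10, adjusted p 0.00905 by edgeR), a call lost with library totals alone (-0.19) and with myofibre scaling (-0.18).

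Of 6 tested genes that expel calcium through the surface membrane, 1 was higher and 2 lower. The sodium-calcium exchanger genes Slc8a1 and Slc8a3 moved in opposite directions. Slc8a1, the exchanger of heart and many other cells, fell from 41.6 ± 5.12 to 28.9 ± 0.870 CPM (log2 fold change -0.52, SE 0.07, adjusted p 5.1e-05 by edgeR), without overlap. Slc8a3, an exchanger of skeletal muscle and brain, rose from 90.5 ± 8.30 to 121 ± 28.7 CPM (log2 fold change 0.42, SE 0.13, adjusted p 0.0136 by edgeR), with overlap. The pump gene Atp2b1 was lower (log2 fold change -0.18, SE 0.06, adjusted p 0.0205 by edgeR), a call lost with library totals alone (-0.02), myofibre scaling (-0.01) and upper quartile scaling (-0.13).

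Of 13 calcium-dependent signalling genes of calcineurin and CaM kinase, 1 was higher and 4 lower. With library totals alone 4 were higher and 4 lower, and with myofibre scaling 4 were higher and 3 lower. Rcan2, an inhibitor of calcineurin, fell from 112 ± 4.90 to 60.1 ± 7.66 CPM (log2 fold change -0.89, SE 0.08, adjusted p 1.4e-06 by edgeR), the largest change of the 6 lists among genes with a mean of at least 5 CPM. Nfatc2, a transcription factor that calcineurin activates, rose from 13.1 ± 1.96 to 19.5 ± 2.0 CPM (log2 fold change 0.57, SE 0.10, adjusted p 4.4e-04 by edgeR). Camk2a, a CaM kinase subunit, fell from 635 ± 44.5 to 474 ± 66.4 CPM (log2 fold change -0.42, SE 0.09, adjusted p 0.00136 by edgeR). Nfatc2 is also expressed in immune cells, and the macrophage markers given above were higher in the same libraries. Their part in the Nfatc2 result was not tested.

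**Figure D4:**
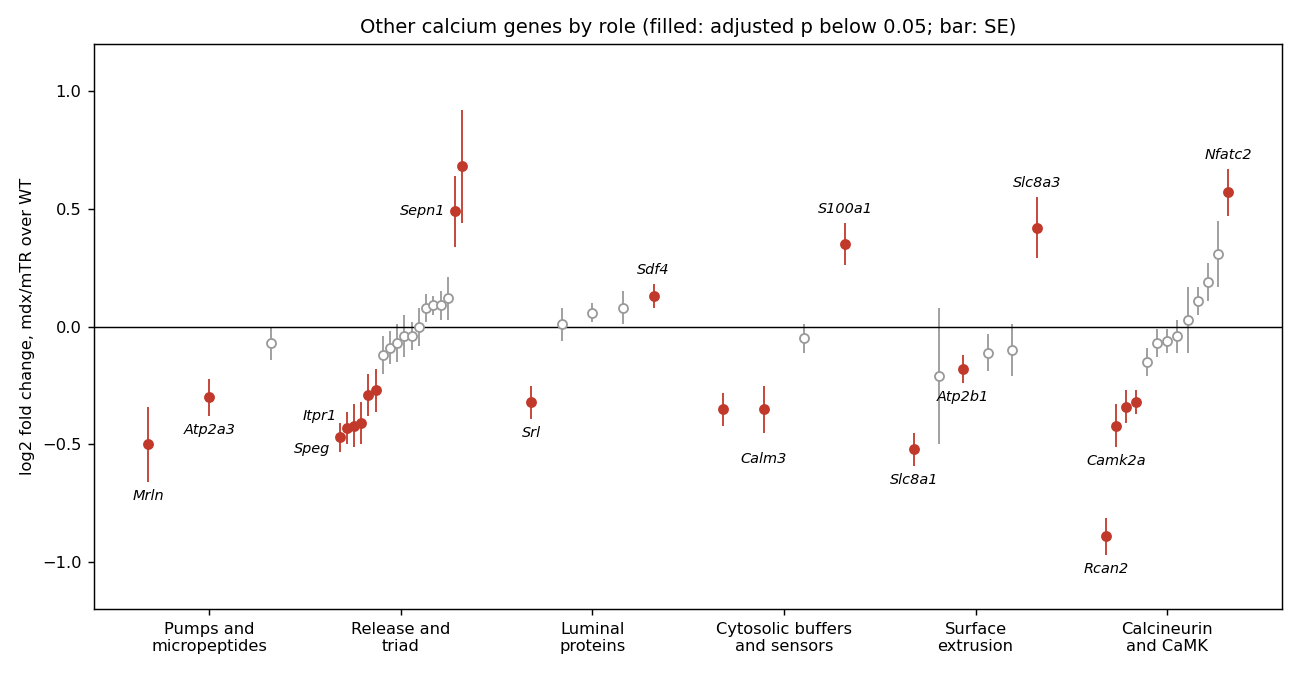
Log2 fold change (mdx/mTR over WT, with SE) of the 49 tested genes of the 6 lists, TMM scaling, ordered by value within each list. Filled points had an adjusted p below 0.05, 6 of them above 0 and 17 below, and the genes described by role in the text are labelled.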

How the data were processed

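Gene counts of 12 libraries were analysed, 6 per group, with groups and replicate numbers from the labels. The authors deposited whole-number counts per gene symbol, and 0 per-sample columns were left unmatched. Per the submitters' processing notes, FastQC, STAR, DESeq2 and build mm10 were used; the counter, versions and strand handling are not given in the sources used here. The authors' deposited table of their comparison holds a mean normalized signal, a log2 fold change with its error, a test score and p-values, per the file headers; its log2 fold changes are quoted where named.

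The test on the deposited counts was made in R 4.3.3 with edgeR 4.0.16: filterByExpr (13937 genes, 99.97% of counts), TMM scaling, group as the only term, glmQLFit and glmQLFTest, Benjamini-Hochberg adjustment over all tested genes and a threshold of 0.05. The SE is the size of the log2 fold change divided by the square root of F. Shares used exact permutation tests (smaller tail doubled). On simulated counts for 13583 genes, the fit recovered 88.8% of genes changed by 1 on the log2 scale and 100% of those changed by 2, with 5 false calls. Only 98 genes were changed by 1 and 97 by 2, while 48.3% of genes were called in the real data. Called genes there had a median absolute log2 fold change of 0.44. Changes that small were not simulated, so the simulation does not bear on them.

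Totals ran from 35136327 to 60330410 counts, and the floor of 3 counts takes in counting only. The SD and SE values also take in the spread between libraries. The labels do not state that each library came from a separate animal, so p-values measure only the spread between these samples, which may be technical. Replicate pairs differed beyond sampling noise (chi-square divided by its degrees of freedom, 8.87 to 116). Same-numbered libraries had correlations of deviations from -0.155 to 0.354, with 2 of 6 above 0.1, so mice were not paired by number.

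The genes and lists were chosen with earlier results of these data known. The rule names the 10 genes, Dmd, Myh7, Myh4, Myh3, up to 2 rises and 2 falls per list with a mean of at least 5 CPM, and the 3 genes most like Sln and Atp2a1. Genes given only as overlapping neighbours (Cep85l, Gm47644, Aven, Rabep2), Terc, marker genes, Jph2 and 1810037I17Rik fall outside it. Rabep2, Jph2 and 1810037I17Rik were chosen after their values were seen. One gene that the rule names is not reported here. Of the listed genes, 1 (Strit1) had no row in the count table.

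Alternatives were other scalings, filters, DESeq2 1.42.0, limma-voom (limma 3.58.1), a replicate block, mice left out, a stricter threshold and a minimum effect. Coordinates, transcript lengths and coding sequences came from GENCODE M21 (GRCm38, the assembly of mm10). Cut into stretches of 50 bases, the longest coding transcripts of Atp2a2 and Atp2a1 shared 3.61% and 0.117% of stretches with other genes, and those of the other 8 genes shared 0%. Opposite-strand exons of genes without a row in the count table also cover part of Casq1 (8.0% of its exon length), Ryr1 (3.96% and 0.229%), Atp2a2 (1.36%) and Jph1 (0.68%).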

Additional observations from a re-analysis of the deposited data

Results flagged for a closer look

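Within each group of 6 mice, the gap of the highest or lowest value to its neighbour was set against the whole range of that group, and a mouse stood apart where the ratio passed Dixon's 95% critical value. This happened in 7 of 62 groups of values, and 3.1 would come from chance. Shares and their genes move together, so these are not independent.

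Mouse 5 of mdx/mTR was highest for Atp2a2, at 168 CPM against 86.9 to 112 CPM in the others (ratio 0.692). WT mouse 2 was highest for Casq2, at 96.0 CPM against 48.9 to 64.5 CPM (ratio 0.670), and for the share of Casq2 in calsequestrin counts, at 2.59% against 1.25% to 1.69% (ratio 0.674). It was also lowest for Ryr1, at 7009 CPM against 7910 to 8403 CPM (ratio 0.646). WT mouse 6 was lowest for Casq1, at 3200.5 CPM against 3616 to 3865 CPM. WT mouse 1 was highest for Mrln, at 44.1 CPM against 26.4 to 32.1 CPM (ratio 0.676). Mouse 3 of mdx/mTR was highest for Atp2a3, at 16.5 CPM against 13.1 to 13.9 CPM (ratio 0.773). The calls of Atp2a2, Ryr1, Casq1, Mrln and Atp2a3 were kept without each of these mice.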

How the results depend on the processing

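Sln, Atp2a2, Casq1, Ryr1 and Jph1 kept their direction and an adjusted p below 0.05 under the 22 other scalings, filters, models and sets of mice tried. Their log2 fold changes ran from 3.12 to 3.42 (Sln), 1.0 to 1.37 (Atp2a2), 0.24 to 0.48 (Casq1, highest adjusted p 0.0462), -0.56 to -0.36 (Ryr1) and -0.60 to -0.38 (Jph1). Testing for a change beyond 0.5 on the log2 scale left 1368 of 6736 genes, 2 of the 10 genes (Sln and Atp2a2) and 1 of the 23 called genes of the 6 lists. At an adjusted p below 0.01, 4 of the 10 genes passed, without Casq1, and the lists had 15 calls. With library totals alone, 5596 of all tested genes were higher and 1560 lower, in place of 3479 and 3257, and with myofibre scaling 4856 and 1274.

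Genes that did not pass turned sign near 0: Atp2a1 (0.02) and C330007P06Rik (0.11 and 0.12) with library totals and myofibre scaling, Pln with these (0.08 and 0.09), without WT replicate 2 (0.05) and without it and mdx/mTR replicate 5 together (0.09), and Casq2 (-0.09) and Ryr3 (-0.07) without mdx/mTR replicate 5, with Ryr3 at -0.21 without both. The cause was not tested. Leaving out one mouse gave 6125 to 6816 calls over all genes, 5 of the 10 genes each time and 21 to 24 in the lists, with log2 fold changes of -0.09 to 0.36 for Casq2, -0.15 to 0.05 for Pln, 0.04 to 0.21 for Pvalb and -0.07 to 0.30 for Ryr3. The differences in share (mdx/mTR minus WT) then ran from 0.132 to 0.188 points for Atp2a2, 0.0152 to 0.0181 for Sln, -2.66 to -2.11 for Pln, 0.00556 to 0.0130 for Ryr3 and -0.425 to 0.105 for Casq2, whose sign turned without WT replicate 2 or mdx/mTR replicates 1, 4 or 6. With the replicate block, 6420 genes passed, 5 of the 10 genes and 22 in the lists; Sdf4 lost its call (adjusted p 0.0659). Ryr3, Pln and, in WT, Sln rest on the fewest reads of the 10 genes, and whether depth or spread between mice limits them was not tested.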
